A study of Mus musculus with 12 samples.

Results

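The comparison described here is of liver tumors raised with diethylnitrosamine (DEN) and normal liver in mice that are wild type (WT) for Setd2. It uses 6 of the 12 libraries of the series, which are the 3 labelled Setd2 wild type liver tumor and the 3 labelled Setd2 wild type normal liver tissue, and all 11671 gene entries with a value of 1 or more FPKM (a read density corrected for transcript length and library size) in 3 or more of the 12 libraries. The tumors came from male mice given 1 intraperitoneal dose of 25 mg/kg DEN at 2 weeks of age, and were taken at 8 months. The normal livers came from untreated male mice of 8 months, so that exposure to DEN and the growth of a tumor cannot be told apart here. The other 6 libraries are the same 2 kinds of tissue from Setd2 knockout (KO) mice, titled cKO, and enter only where the tumor effect is set beside that of the KO mice. Strain, the alleles carried by WT mice, and whether a library is 1 tumor, 1 mouse or a pool are not stated by the labels, so p-values measure the spread between these libraries only. In bulk tissue, fewer cells of a type and less RNA per cell cannot be told apart.

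DEN is turned into a DNA-alkylating agent by cytochrome P450 enzymes in hepatocytes, and a single dose in infant male mice is a standard way to raise hepatocellular tumors. Such tumors are known for mutations that switch on Ras and MAPK signalling, for fetal liver genes such as Afp, and for loss of the programs of a mature hepatocyte. Those programs include the secretion of plasma proteins, the detoxification and bile acid enzymes, and the division of labour along the lobule, in which Wnt signalling marks the cells around the central vein.

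Setd2, the enzyme that trimethylates histone H3 at lysine 36, was measured at 4.84, 3.84 and 4.70 FPKM in WT livers 1, 2 and 3 and at 4.40, 3.61 and 4.07 FPKM in WT tumors 1, 2 and 3, against 1.32 to 3.14 FPKM in the 6 KO libraries. The 2 WT groups overlapped (log2 difference -0.12, adjusted p = 0.557, limma). The 13 hepatocyte markers added up to between 41175 and 48345 FPKM in the livers and between 47863 and 54811 FPKM in the tumors, so both tissues held hepatocyte RNA. The mean log2 level of these markers was 11.02 to 11.28 in livers and 10.69 to 10.94 in tumors. Of the 13, 1 rose (Apoa1, whose high level weighs on the sums) and 2 fell. WT tumor 1 stood apart: over the tested entries its correlation was 0.953 with tumor 2 and 0.949 with tumor 3, against 0.985 between tumors 2 and 3 and 0.982 to 0.986 among the livers. The entries Serpina1b, Serpina1e, Dnajb11, Ahsg and Trf, well expressed in the other WT libraries, are listed at 0 in WT tumor 1 alone of the 6 libraries. Listed at 0 are also 2 major urinary protein entries in WT livers 2 and 3 and an entry that repeats the name H2-Q1 in WT liver 3. With such values set as missing, 1989 entries were called in place of 1981. Depth is unknown because the files hold no counts.

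In all, 935 entries were higher in tumors (8.01% of those tested) and 1046 were lower (8.96%) at an adjusted p under 0.05, and the median difference over all entries was -0.04 on the log2(FPKM + 1) scale. Of these, 419 rose and 311 fell by 2-fold or more, and 89 rose and 33 fell by 4-fold or more. The number called was 1104 without WT liver 1, 912 without liver 2, 454 without liver 3, 2134 without tumor 1, 1091 without tumor 2 and 1274 without tumor 3, so every library but tumor 1 moved it by more than 1.5 times. When the values were rescaled to the same total in each library (TPM), the median over all entries moved to 0.21 and the calls split into 1608 higher and 400 lower. Where counts are given without 1 library they are in the order liver 1, 2, 3 and tumor 1, 2, 3 unless another order is named. Every list count below is to be read against the shares of 8.01% higher and 8.96% lower over all entries.

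The largest rise was in Tff3, a secreted trefoil peptide of mucous epithelia (chromosome 17, 31125306 to 31129646, minus strand, GRCm38). Tff3 was at 1.97, 2.46 and 4.04 FPKM in the livers and at 1141, 359 and 868 FPKM in the tumors. All 3 tumors lay far above all 3 livers, by 7.57 on the log2 scale (SE 0.42, adjusted p = 0.00043). Cyp2a4, a steroid hydroxylase normally higher in female liver, was at 10.2, 9.998 and 14.1 FPKM in livers and at 4315, 583 and 757 FPKM in tumors (6.66, SE 0.69, adjusted p = 0.00346). Tumor 1 was the highest of the 3 for both genes. Akr1c18, the enzyme that inactivates progesterone, rose from between 0.517 and 0.657 FPKM to 144, 110 and 81.3 FPKM (6.13, SE 0.20, adjusted p = 8.75e-05). Afp, the albumin-like protein of fetal liver and a serum marker of liver cancer, was at 1.70, 2.59 and 1.55 FPKM in livers and at 472, 118 and 82.3 FPKM in tumors (5.85, SE 0.59, adjusted p = 0.00307). Spink1, a secreted trypsin inhibitor, was below 1.5 FPKM in every liver and at 172, 108 and 57.7 FPKM in tumors (5.82, SE 0.39, adjusted p = 0.000802).

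The other large rises were in Wfdc15b (a small secreted protein of the WAP family; 5.39), Bex1 (4.63), the tetraspanins Cd63 (4.53) and Tspan8 (4.47), Erich4 (4.23), the lectin-like receptor Klrb1b (3.90) and the interferon-inducible Ifi27l2b (3.85). Cd63 went from 4.86, 7.35 and 5.06 FPKM in livers to 279, 91.3 and 140 FPKM in tumors, and Ifi27l2b from 3.0, 5.13 and 3.67 FPKM to 88.1, 64.5 and 58.0 FPKM. Of the 12 largest rises, 11 stayed called without any 1 of the 6 libraries. Bex1, at 160 FPKM in tumor 1 but 13.3 and 13.2 FPKM in tumors 2 and 3, had adjusted p-values of 0.0521, 0.0599 and 0.0709 without livers 1, 2 and 3.

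**Figure D1:**
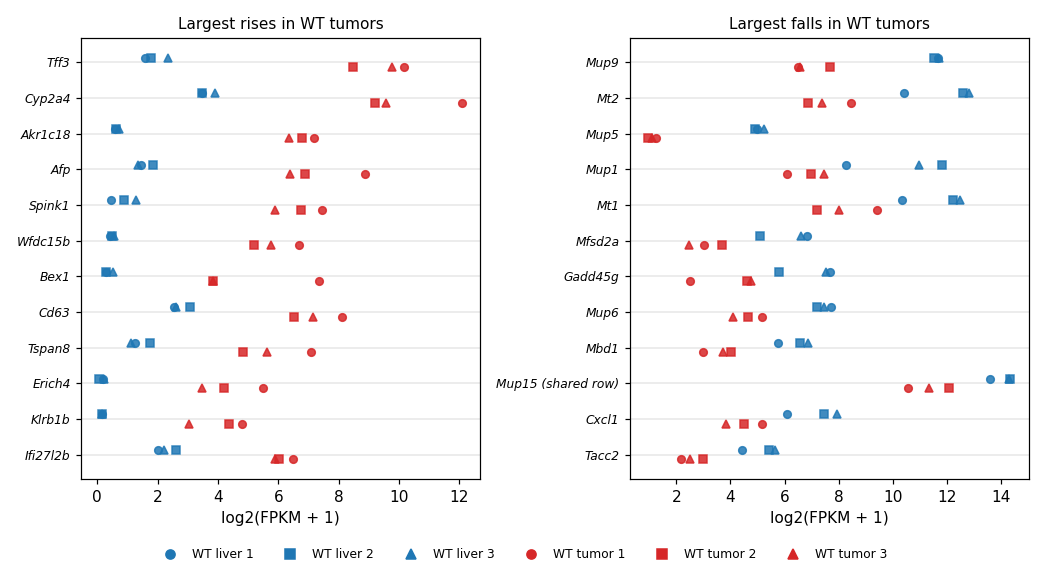
Values of log2(FPKM + 1) in each WT library (blue, 3 livers; red, 3 tumors; symbol shape gives the replicate) for the 12 genes with the largest called rise and the 12 with the largest called fall. Livers and tumors do not overlap for any of the 24, by the rule that chose them; Tff3 sits between 1.97 and 4.04 FPKM in livers and between 359 and 1141 FPKM in tumors. The row named Mup15 joins Mup15, Mup2, Mup4 and Mup7.

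The largest falls were dominated by major urinary proteins, which carry pheromones and are secreted in bulk by male liver, and by metallothioneins. Mup9 was at 3294, 2969 and 3380 FPKM in livers and at 88.8, 202 and 94.1 FPKM in tumors (-4.74, SE 0.31, adjusted p = 0.000761). Mup5 was at 30.9, 29.0 and 36.7 FPKM against 1.40, 0.948 and 1.16 FPKM (-3.93, SE 0.14, adjusted p = 8.75e-05). The 2 groups of both genes were each tight and far apart. Mfsd2a, a transporter of lysophospholipids, was at 114, 33.0 and 97.4 FPKM in livers and at 7.03, 11.8 and 4.51 FPKM in tumors (-3.14, adjusted p = 0.0109; 0.0546 without liver 3). Tacc2, a centrosome protein, fell from 20.6, 42.3 and 49.5 FPKM to 3.49, 7.003 and 4.68 FPKM (-2.62, adjusted p = 0.00652), and Mbd1, a protein that binds methylated DNA, from 52.6, 94.2 and 117 FPKM to 6.85, 15.4 and 12.2 FPKM (-2.82, adjusted p = 0.00618). Both stayed called without any 1 library.

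Among the remaining large falls, Gadd45g, a growth-arrest gene, was at 204, 55.1 and 182 FPKM in livers and at 4.60, 23.3 and 26.2 FPKM in tumors (-3.05, adjusted p = 0.0311). Cxcl1, a neutrophil chemokine, was at 67.2, 176 and 247 FPKM against 35.2, 21.5 and 13.3 FPKM (-2.67, adjusted p = 0.0185). These calls were less secure: Gadd45g had adjusted p-values of 0.0896, 0.116 and 0.0531 without liver 1, liver 3 and tumor 2, and Cxcl1 of 0.065, 0.0709 and 0.0502 without liver 2, liver 3 and tumor 2.

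**Figure D2:**
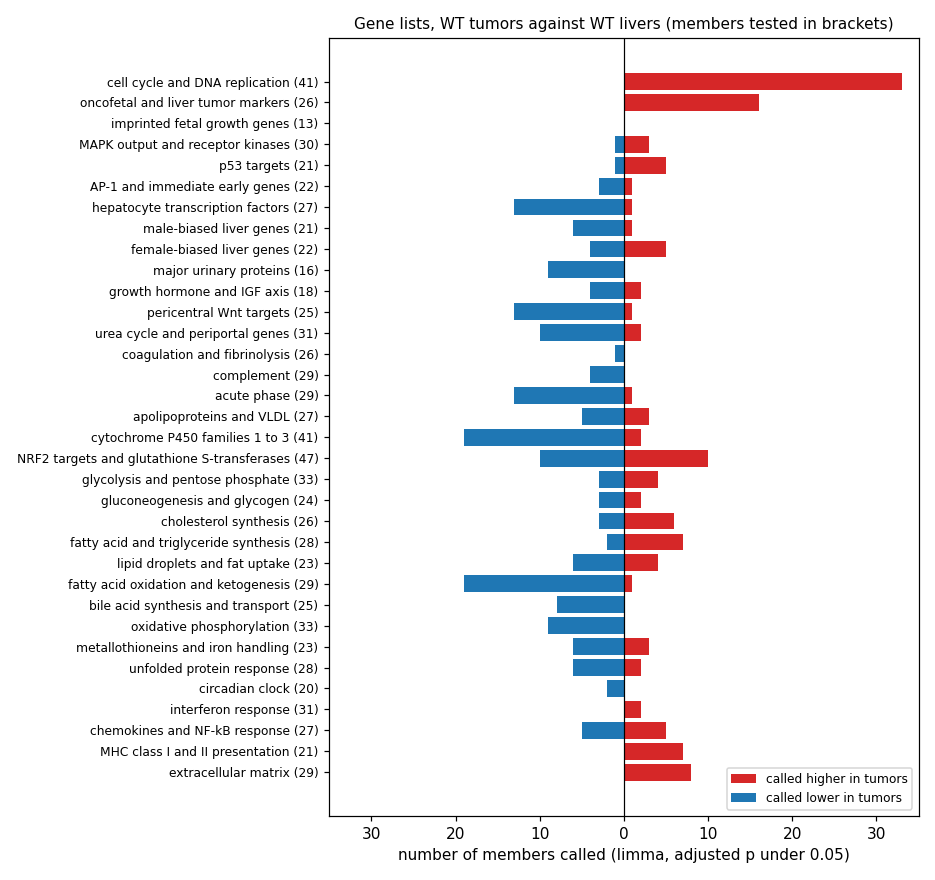
Number of members called higher (red, to the right) and lower (blue, to the left) in WT tumors for 34 gene lists, with the number of members tested in brackets. Cell cycle genes rose (33 of 41), and the longest bars to the left are the cytochrome P450 and fatty acid oxidation lists with 19 members each. Over all entries tested, 8.01% were called higher and 8.96% lower.

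Cell cycle and DNA replication genes rose together. Of 41 members tested, 33 rose and none fell, and the list's median difference was 1.11 against -0.04 over all entries. Members such as Birc5, Cdk1, Ube2c, Ccna2 and Mki67 were below 1 FPKM in every WT liver. They passed the filter through other libraries and had little room to fall, so the counts and the median were partly set by the filter. The 4 members with the smallest adjusted p were Birc5, Cdk1, Ube2c and Ccna2, which act in S phase or mitosis. Ube2c, the ubiquitin-conjugating enzyme of the anaphase-promoting complex, was at 0.475, 0.777 and 0.541 FPKM in livers and at 8.94, 5.43 and 8.49 FPKM in tumors (2.41, SE 0.19, adjusted p = 0.00139). Birc5, or survivin, a subunit of the chromosomal passenger complex, was at 0.358, 0.587 and 0.418 FPKM against 5.94, 5.03 and 6.42 FPKM (2.22, SE 0.14, adjusted p = 0.000656). Cdk1, the kinase that drives entry into mitosis, was at 0.310, 0.300 and 0.292 FPKM against 3.59, 3.34 and 3.57 FPKM (1.79, SE 0.11, adjusted p = 0.000694). Values within each group were close for Cdk1, and neither group came near the other. Ccna2 (cyclin A2) rose by 1.93 and Mki67, the proliferation marker Ki-67, by 1.20, from 0.0865, 0.363 and 0.315 FPKM to 2.46, 1.49 and 1.77 FPKM. Ccnd1, cyclin D1 of the G1 phase, was at 8.68, 9.31 and 4.28 FPKM against 27.5, 18.9 and 13.5 FPKM in an entry shared with a microRNA (1.32, adjusted p = 0.036), and its call was lost without any of the 3 livers, tumor 1 or tumor 2 (adjusted p 0.0594 to 0.101).

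Members that act in DNA replication are named here after their values were seen. Mcm5 of the replicative helicase rose by 1.11 and Rrm1 of ribonucleotide reductase by 0.71. The sliding clamp Pcna was at 22.1, 20.2 and 22.5 FPKM in livers and at 21.7, 26.2 and 27.3 FPKM in tumors and was not called (0.20, adjusted p = 0.288). E2f8, a repressor of the E2F family, was at 10.4, 8.69 and 13.3 FPKM against 4.09, 15.4 and 8.89 FPKM (-0.31, adjusted p = 0.606), so that the groups overlapped. Without livers 1, 2 and 3 in turn, 26, 26 and 16 members of the list rose, and without tumors 1, 2 and 3, 32, 26 and 28; under TPM 36 rose. In tumors the summed level of the tested members was 198 to 226 FPKM, against 89.1 to 102 FPKM in livers.

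Promoters of mitotic genes are known for pairs of CCAAT boxes and for the cell cycle genes homology region (CHR, TTTGAA), which binds the DREAM and MuvB complexes. The promoters of Cdk1 and Ube2c are shown because the genes were among the 4 list members with the smallest adjusted p and hold both motifs. They are from RefSeq (GRCm38.p6), run 5′ to 3′ from 250 bases before to 50 bases after the annotated start, and have TTTGAA and CCAAT on either strand in capitals. Cdk1 lies at chr10:69352863-69353162 on the minus strand and Ube2c at chr2:164769679-164769978 on the plus strand.
Cdk1: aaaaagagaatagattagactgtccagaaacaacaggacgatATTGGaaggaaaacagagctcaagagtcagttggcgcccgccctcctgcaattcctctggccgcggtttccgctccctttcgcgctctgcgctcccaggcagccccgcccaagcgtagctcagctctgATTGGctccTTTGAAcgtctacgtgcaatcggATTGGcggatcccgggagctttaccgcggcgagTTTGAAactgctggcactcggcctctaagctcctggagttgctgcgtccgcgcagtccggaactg
Ube2c: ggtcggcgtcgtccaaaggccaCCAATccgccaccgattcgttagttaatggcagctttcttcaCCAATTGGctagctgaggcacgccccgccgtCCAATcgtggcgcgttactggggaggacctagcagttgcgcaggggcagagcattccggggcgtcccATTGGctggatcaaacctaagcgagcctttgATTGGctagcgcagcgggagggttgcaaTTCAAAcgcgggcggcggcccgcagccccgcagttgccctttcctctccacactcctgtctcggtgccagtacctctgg
The Cdk1 promoter held 2 matches to TTTGAA and 3 to CCAAT, and that of Ube2c held 1 and 6, of which a pair overlap. For 26 of the 33 genes that rose, 27 promoters were found, and 63.0% of these held TTTGAA against 17.9% of all 32851 promoters; CCAAT was in 85.2% against 37.4%. A match is a description of letters, not of binding.

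Oncofetal and liver tumor marker genes were also higher: 16 of 26 tested rose, none fell, and the median difference was 1.85. Members such as Gpc3, Sox4 and Prom1 were below 1 FPKM in every WT liver and had little room to fall. Beside Tff3, Spink1, Cd63, Tspan8 and Afp, these included Cbr3, a carbonyl reductase, at 0.740, 1.77 and 1.54 FPKM in livers and 14.4, 28.7 and 18.7 FPKM in tumors (3.18, SE 0.28, adjusted p = 0.00178). Among members chosen after their values were seen, Anxa2 (annexin A2) rose from 8.24, 14.7 and 6.28 FPKM to 72.5, 76.3 and 82.5 FPKM (2.94, adjusted p = 0.00198) and Golm1, a Golgi membrane protein used as a serum marker, from 1.16, 1.26 and 0.549 FPKM to 19.4, 9.07 and 8.19 FPKM (2.65, adjusted p = 0.00514). Not every marker was shared by the 3 tumors. Gpc3, a fetal glypican of hepatocellular carcinoma, was at 164 and 53.2 FPKM in tumors 1 and 2 but at 0.541 FPKM in tumor 3, just under the livers' range of 0.553 to 0.769 FPKM (3.87, adjusted p = 0.121). Spp1 (osteopontin) was at 60.5, 632 and 377 FPKM in tumors against 32.9, 124 and 41.2 FPKM in livers (2.12, adjusted p = 0.137). Without livers 1, 2 and 3 in turn 12, 11 and 11 members rose, and without tumors 1, 2 and 3, 17, 13 and 15.

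Genes of the imprinted fetal growth list, many of which are silenced on 1 parental copy and shut down in liver after birth, were mostly highest in WT tumor 1. Other members were not low in livers, such as Gnas (325, 358 and 352 FPKM) and Dcn (42.5, 47.8 and 34.0 FPKM). None of the 13 tested was called in either direction, and 1 rose without tumor 3 (at an unadjusted p under 0.05 in limma, 4102 of all entries passed). H19, a noncoding RNA, was at 11.7, 20.01 and 14.7 FPKM in livers and at 796, 23 and 48.1 FPKM in tumors (2.60, SE 1.17, adjusted p = 0.161). Igf2, the fetal growth factor next to H19, was at 0.495, 0.902 and 0.535 FPKM against 72.2, 0.301 and 0.540 FPKM (1.69, SE 1.43, adjusted p = 0.431). Tumors 2 and 3 lay within or under the range of the livers for Igf2 and above it for H19. The genes of the Dlk1 and Meg3 cluster, named here after their values were seen, were also highest in tumor 1: Dlk1 was at 24.2 FPKM in tumor 1 against 0.265 and 0.127 FPKM in tumors 2 and 3, Meg3 at 171 against 13.4 and 3.83 FPKM, Rian at 99.7 against 4.15 and 0.684 FPKM, and Mirg at 18.9 against 0.746 and 0.605 FPKM. In the livers, Dlk1 reached at most 0.196 FPKM and Meg3 at most 5.54 FPKM. Grb10, an adaptor that restrains growth factor receptors, was at 7.82, 1.23 and 0.998 FPKM in tumors and at 0.631, 0.386 and 0.385 FPKM in livers (1.22, adjusted p = 0.152). The mean log2 level of the list was 5.07 in tumor 1, 2.63 and 2.25 in tumors 2 and 3, and 2.02 to 2.28 in the livers; its median difference was 1.24 with all libraries and 0.26 without tumor 1.

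Some sex-biased liver genes also set tumor 1 apart from tumors 2 and 3. In male mice, pulses of growth hormone acting through STAT5 keep male-biased genes high and female-biased genes low. Of 21 male-biased genes tested, 1 rose and 6 fell, against 8.01% higher and 8.96% lower over all entries. Slco1a1, an organic anion transporter, was at 111, 83.5 and 93.1 FPKM in livers and at 30.3, 32.3 and 25.8 FPKM in tumors, a like fall in all 3 (-1.66, SE 0.15, adjusted p = 0.00184). Ugt2b1, a glucuronosyltransferase, fell by 1.28 (adjusted p = 0.00979). Susd4, a complement regulator, fell by 1.76 (adjusted p = 0.0119; 0.0518 without liver 3). The member that rose was Serpina12 (vaspin), at 87.4, 69.2 and 47.0 FPKM in livers against 380, 397 and 270 FPKM in tumors (2.37, SE 0.25, adjusted p = 0.00358).

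For some other male-biased genes tumor 1 was the lowest library, and none of those that follow was called. Cyp7b1, an oxysterol hydroxylase, was at 255, 274 and 176 FPKM in livers and at 34.9, 196 and 109 FPKM in tumors (-1.34, adjusted p = 0.143). Hsd3b5, a steroid dehydrogenase, was at 104, 89.4 and 63.8 FPKM against 22.0, 92.4 and 48.4 FPKM (-0.84, adjusted p = 0.243), and Elovl3, a fatty acid elongase, at 119, 62.9 and 107 FPKM against 11.8, 98.2 and 180 FPKM (-0.61, adjusted p = 0.657). Tumor 2 lay within the range of the livers for all 3 genes, while tumor 3 lay below it for Cyp7b1 and Hsd3b5 and above it for Elovl3. The male-biased Ces2e, chosen after its values were seen, was instead highest in tumor 1. It was at 126, 123 and 151 FPKM in livers and at 469, 231 and 179 FPKM in tumors (1.01, adjusted p = 0.079, limma). The median difference of the male-biased list was -0.61 with all libraries and 0.14 without tumor 1, so its sign rests on that library; 5, 3, 2, 5, 5 and 4 members fell without livers 1 to 3 and tumors 1 to 3 in turn.

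Of 22 female-biased genes, 5 rose and 4 fell (median 0.27), against 8.01% higher and 8.96% lower over all entries. Beside Cyp2a4, those that rose included Abcd2, a peroxisomal transporter of very long chain fatty acids, at 0.769, 0.727 and 0.745 FPKM in livers and 25.5, 9.41 and 5.28 FPKM in tumors (2.78, adjusted p = 0.0125; 0.0569 without liver 3). Cyp2b10, a target of the nuclear receptor CAR, was at 2.41, 5.98 and 5.55 FPKM against 1.12, 0.366 and 1.08 FPKM (-1.56, adjusted p = 0.0198), a call lost without liver 2, liver 3 or tumor 2 (adjusted p 0.0543 to 0.0832). Chosen after their values were seen, Sult2a2, a hydroxysteroid sulfotransferase, was at 129 FPKM in tumor 1 against 0.731 and 2.16 FPKM in tumors 2 and 3 and at most 0.332 FPKM in livers, and Cyp2b13 was at 55.4, 1.52 and 5.96 FPKM in tumors against at most 0.572 FPKM in livers. Neither was called (adjusted p 0.218 and 0.079). Cyp17a1, chosen in the same way, was lowest among tumors in tumor 1, at 5.86, 33.9 and 36.8 FPKM (1.07, adjusted p = 0.299, limma). So was Atp6v0d2, at 0.734, 2.66 and 6.98 FPKM in tumors 1, 2 and 3. The number that rose was 3, 3 and 1 without livers 1, 2 and 3 and 7, 5 and 5 without tumors 1, 2 and 3.

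**Figure D3:**
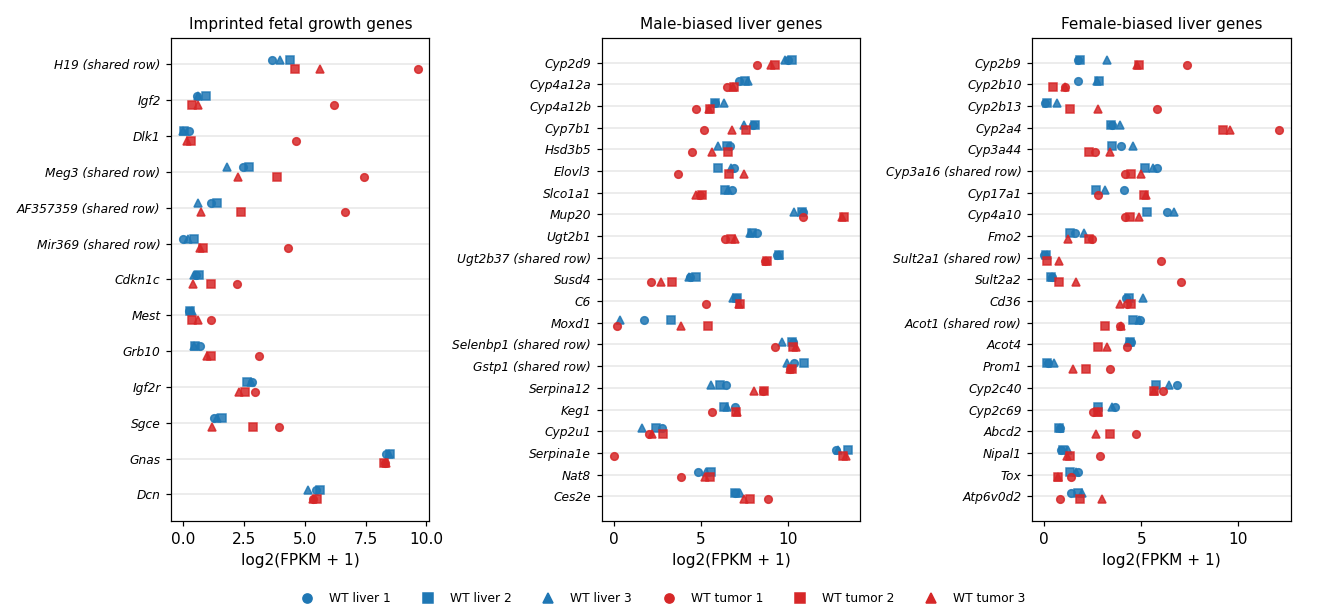
Values of log2(FPKM + 1) in each WT library (blue, livers; red, tumors; circles are replicate 1) for imprinted, male-biased and female-biased genes. Tumor 1 is the red circle far to the right for H19 (796 FPKM), Igf2 (72.2 FPKM) and Sult2a2 (129 FPKM), and to the left for Elovl3 (11.8 FPKM); the rows AF357359 and Mir369 are those of Rian and Mirg, and the 0 for Serpina1e in tumor 1 is 1 of the listed zeros.

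Most major urinary protein entries were lower in tumors. Of 16 entries tested, 9 fell and none rose (median -1.83); 3 had differences above 0, of which 2 (Mup12 and the entry of Mup10) are those listed at 0 in livers 2 and 3, and the family took 6.3% to 7.0% of the summed FPKM in livers and 2.06%, 4.86% and 3.46% in tumors 1, 2 and 3. The most abundant entry, shared by Mup15, Mup2, Mup4 and Mup7, was at 12371, 20943 and 20371 FPKM in livers and at 1511, 4308 and 2608 FPKM in tumors (-2.76, adjusted p = 0.0101; 0.0542 without liver 3). Mup6 was at 210, 148 and 177 FPKM against 35.3, 24.1 and 16.1 FPKM (-2.83, adjusted p = 0.00264). Mup20, or darcin, the male pheromone, was named after its values were seen. It stood at 1875, 1788 and 1325 FPKM in livers and at 1895, 9683 and 9013 FPKM in tumors, high in tumors 2 and 3 only (1.74, adjusted p = 0.0919). Mup1 was at 312, 3638 and 2031 FPKM against 66.5, 124 and 173 FPKM (-3.54, adjusted p = 0.0345), and its call held in 1 of 6 fits without a library (adjusted p 0.0562 to 0.125 in the other 5). Mup genes are near-identical copies, so the split of reads between them is uncertain. Without livers 1, 2 and 3 in turn 8, 7 and 5 entries fell, and without tumors 1, 2 and 3, 8, 11 and 7.

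Growth hormone and IGF axis genes had 2 rises and 4 falls among 18 (3, 3, 2, 4, 3 and 5 falls without 1 library). The rises were near the share over all entries (8.01% higher and 8.96% lower). Ghr, the growth hormone receptor, was at 246, 255 and 295 FPKM in livers and 103, 137 and 148 FPKM in tumors (-1.04, adjusted p = 0.0117; 0.0558 without liver 3). Prlr, the prolactin receptor, was at 33.7, 19.2 and 40.2 FPKM against 9.25, 5.77 and 7.78 FPKM (-1.86, adjusted p = 0.00979). Igfbp3, the main carrier of IGF in plasma, rose from 4.22, 5.93 and 4.14 FPKM to 10.9, 10.3 and 10.3 FPKM (1.01, adjusted p = 0.00872). Igf1 was at 231, 211 and 218 FPKM against 58.9, 101 and 158 FPKM; the groups did not overlap, but the tumors were spread and the call was missed (-1.15, adjusted p = 0.0513).

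Transcription factors that set hepatocyte identity were lower: 13 of 27 fell and 1 rose (median -0.62), with 10, 7 and 3 falls without livers 1, 2 and 3, 11, 11 and 9 without tumors 1, 2 and 3, and 7 under TPM. Nr1i3 (CAR, the xenobiotic receptor) was at 74.7, 92.9 and 63.7 FPKM in livers and at 25.9, 27.2 and 28.3 FPKM in tumors (-1.46, SE 0.15, adjusted p = 0.00346). Ppara, a nuclear receptor that turns on the burning of fat, was at 53.9, 41.2 and 48.5 FPKM against 24.1, 19.2 and 17.4 FPKM (-1.21, SE 0.16, adjusted p = 0.00652). For both genes the tumors lay close together and below every liver. Hnf4a was at 234, 306 and 297 FPKM against 127, 178 and 141 FPKM (-0.91, adjusted p = 0.0185; 0.0634 without liver 2 and 0.0792 without liver 3). Rxra, the shared partner of the receptors Nr1i3 and Ppara, fell by 0.73 (adjusted p = 0.0125, limma). Its call was lost without liver 3 (0.0513) and under TPM (0.097).

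Genes of the pericentral zone, where Wnt signalling is active, were mostly lower: 13 of 25 fell and 1 rose (median -0.94), with 9, 8 and 4 falls without livers 1, 2 and 3 and 12, 12 and 11 without tumors 1, 2 and 3. Glul (glutamine synthetase), the classic marker of the cells around the central vein, was at 350, 364 and 356 FPKM in livers and at 138, 207 and 124 FPKM in tumors, in an entry shared with a microRNA (-1.22, adjusted p = 0.0118; 0.0557 without liver 3). Cyp2e1, which activates DEN, was at 4800, 4546 and 5181 FPKM against 1222, 2140 and 1352 FPKM (-1.67, adjusted p = 0.00979; 0.0535 without liver 3). Every tumor was below every liver for both. Rgn (regucalcin), Aldh3a2 (an aldehyde dehydrogenase) and Lect2 (a secreted hepatokine induced by Wnt) fell by 1.30, 1.10 and 1.17, and stayed called without any 1 library. Slc1a4, a transporter of neutral amino acids including serine, was the member that rose, from 1.48, 1.60 and 1.43 FPKM to 5.45, 5.40 and 5.28 FPKM (1.35, SE 0.11, adjusted p = 0.00149).

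Urea cycle and periportal genes had 10 falls and 2 rises among 31 (median -0.64), so both ends of the lobule were represented among the falls; 3, 6, 2, 11, 5 and 11 members fell without 1 library, and 5 under TPM. Pck1, the gluconeogenic enzyme, was at 1652, 1015 and 1479 FPKM in livers and at 488, 434 and 301 FPKM in tumors (-1.76, adjusted p = 0.00882). Cps1, the first enzyme of the urea cycle, was at 890, 846 and 1137 FPKM against 326, 486 and 535 FPKM (-1.11, adjusted p = 0.0212; 0.0536 to 0.0881 without any 1 of the livers). Hsd17b13, a lipid droplet enzyme, rose from 300.0, 276 and 297 FPKM to 607, 502 and 774 FPKM (1.08, adjusted p = 0.0124; 0.0569 without liver 3). Slc25a13 (citrin), the mitochondrial carrier of aspartate, fell by 0.85 (adjusted p = 0.00734; 0.0605 under TPM).

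Among cytochrome P450 genes of families 1 to 3, 19 of 41 fell and 2 rose (median -0.99). Cyp2c54 was at 186, 199 and 237 FPKM in livers and at 33.4, 51.4 and 42.5 FPKM in tumors (-2.27, SE 0.18, adjusted p = 0.00139). Cyp2c29, which makes epoxides of arachidonic acid, was at 963, 1214 and 1317 FPKM against 189, 299 and 309 FPKM (-2.15, SE 0.23, adjusted p = 0.00361), and Cyp2c37 fell by 1.99. The 2 members that rose were Cyp2a4 and Cyp2b9, the second named after its values were seen, at 2.35, 2.63 and 8.29 FPKM against 162, 28.9 and 26.8 FPKM (3.41, adjusted p = 0.0233). Cyp2c genes are close paralogs, so single members are uncertain. The count of falls was 10, 10 and 7 without livers 1, 2 and 3, 19, 13 and 20 without tumors 1, 2 and 3, and 16 under TPM.

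Acute phase genes, which hepatocytes switch on in inflammation through IL-6 and STAT3, were lower in tumors, and the livers differed among themselves. Of 29 tested, 13 fell and 1 rose (median -1.19). Socs3, the feedback inhibitor of STAT3, was at 20.9, 23.3 and 33.0 FPKM in livers and at 4.32, 5.14 and 3.39 FPKM in tumors (-2.33, SE 0.20, adjusted p = 0.00176). Il6ra, the receptor for IL-6, was at 21.2, 26.4 and 27.6 FPKM against 9.35, 8.15 and 6.19 FPKM (-1.56, adjusted p = 0.00383). Lbp, the binding protein for bacterial lipopolysaccharide, fell by 1.01 (adjusted p = 0.00872), and Stat3, chosen after its values were seen, by 1.19. Cp (ceruloplasmin), the copper carrier of plasma, was the member that rose, from 298, 309 and 323 FPKM to 617, 552 and 561 FPKM (0.89, SE 0.13, adjusted p = 0.00777).

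The inducible serum amyloid genes Saa1, Saa2 and Saa3 were not called, while Saa4, the constitutive form, fell from 242, 273 and 391 FPKM to 109, 139 and 85.1 FPKM (-1.43, SE 0.24, adjusted p = 0.0125); Saa2, Saa3 and Saa4 are named after their values were seen. Saa1 was at 260, 3458 and 7303 FPKM in livers 1, 2 and 3 and at 66.1, 440 and 107 FPKM in tumors (-3.67, SE 1.26, adjusted p = 0.0863). Tumor 2 thus lay above liver 1. The mean log2 level of the acute phase list was 7.56 in liver 1, 8.71 and 9.06 in livers 2 and 3, and 6.98, 7.32 and 6.90 in the tumors. The 12 neutrophil markers followed the same order in the livers, with sums of 7.40, 18.7 and 31.4 FPKM against 9.68 to 11.3 FPKM in tumors; 8 of the 12, Mpo, Elane and Ly6g among them, were below 1 FPKM in all 6 libraries. Their part in the result was not tested. Without livers 1, 2 and 3 in turn 16, 8 and 6 acute phase members fell, and without tumors 1, 2 and 3, 11, 12 and 10.

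Other plasma protein genes had few calls (over all entries 8.01% were higher and 8.96% lower). Of 26 coagulation genes 1 fell (2, 1, 0, 2, 1 and 1 without 1 library), the plasma kallikrein gene Klkb1 in an entry shared with Cyp4v3 (-0.93, adjusted p = 0.0142; 0.0557 without liver 3). Of 29 complement genes 4 fell: Mbl1 and Mbl2, lectins of the complement system, by 1.15 and 0.66, the protease Masp2 by 0.56 and C8g by 0.57. Without 1 library 0, 0, 0, 8, 1 and 4 complement genes fell. Each of the 4 calls was lost in 3 or more of the 6 fits without a library, and 3 of them under TPM (adjusted p 0.143 to 0.222). Apoa1, the main protein of HDL, rose from 9150, 11310 and 8808 FPKM to 27242, 19940 and 21936 FPKM (1.24, adjusted p = 0.0267), a call that held in 1 of 6 such fits (0.0567 to 0.13 in the other 5). Lrp1, the receptor for lipoprotein remnants, was at 59.5, 56.5 and 55.1 FPKM against 26.2, 32.3 and 30.8 FPKM (-0.92, adjusted p = 0.00623).

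Metallothioneins, small cysteine-rich proteins that bind zinc and copper, fell in every tumor relative to every liver. Mt2 was at 1359, 6266 and 7319 FPKM in livers and at 355, 115 and 164 FPKM in tumors (-4.39, SE 0.69, adjusted p = 0.0109). Mt1 was at 1312, 4755 and 5825 FPKM against 681, 147 and 256 FPKM (-3.48, SE 0.71, adjusted p = 0.0208). Liver 1 was the lowest liver and tumor 1 the highest tumor for both genes. The call for Mt2 was lost without liver 3 (adjusted p = 0.0518), and that for Mt1 without liver 2, liver 3, tumor 2 or tumor 3 (0.0522 to 0.0852). Of the 23 metallothionein and iron genes tested 3 rose and 6 fell, against 8.01% higher and 8.96% lower over all entries. The falls numbered 5, 2, 0, 6, 3 and 3 without 1 library. Zinc transporters moved in both directions. Slc39a4 (ZIP4), which takes up zinc at the cell surface, was at 32.3, 31.2 and 35.1 FPKM against 118, 115 and 111 FPKM (1.77, SE 0.10, adjusted p = 0.000543). Slc39a14 (ZIP14), the transporter of zinc and iron induced in the acute phase, fell from 104, 128 and 161 FPKM to 62.2, 53 and 37.9 FPKM (-1.35, adjusted p = 0.0125; 0.0548 without liver 3). Among genes of iron handling, Hfe2 (hemojuvelin), which induces hepcidin, rose from 33.4, 24.9 and 22.6 FPKM to 45.8, 55.8 and 70.0 FPKM (1.05, adjusted p = 0.0176; 0.0619 without liver 2 and 0.0753 without liver 3). Hepcidin itself, in an entry joining Hamp and Hamp2, was at 2390, 1554 and 1809 FPKM against 835, 1342 and 1190 FPKM (-0.78, adjusted p = 0.0752).

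Metallothionein promoters are known for metal response elements, bound by the zinc-sensing factor MTF1. The RefSeq promoters of Mt1 and Mt2 (GRCm38.p6, plus strand) are shown because both genes are among the 12 largest falls and lie side by side on chromosome 8, at chr8:94178839-94179138 and chr8:94172368-94172667. The core of the element, searched as TGCGCNC and TGCACNC on both strands, is in capitals.
Mt1: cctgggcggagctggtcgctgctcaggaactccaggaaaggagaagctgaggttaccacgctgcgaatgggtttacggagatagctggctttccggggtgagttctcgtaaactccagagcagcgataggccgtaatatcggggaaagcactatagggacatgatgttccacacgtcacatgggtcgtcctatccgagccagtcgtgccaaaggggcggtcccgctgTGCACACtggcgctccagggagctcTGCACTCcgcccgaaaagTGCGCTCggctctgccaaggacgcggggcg
Mt2: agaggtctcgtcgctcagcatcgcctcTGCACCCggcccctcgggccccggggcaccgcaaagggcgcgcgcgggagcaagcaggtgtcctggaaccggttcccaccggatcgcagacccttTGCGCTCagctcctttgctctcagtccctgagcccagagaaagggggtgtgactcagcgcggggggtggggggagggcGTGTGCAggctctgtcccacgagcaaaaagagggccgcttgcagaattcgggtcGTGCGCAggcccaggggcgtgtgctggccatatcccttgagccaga
The Mt1 promoter held 3 matches and that of Mt2 held 4. Of all 32851 promoters, 25.7% held 1 or more matches, 1.97% held 3 or more and 0.517% held 4 or more.

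**Figure D4:**
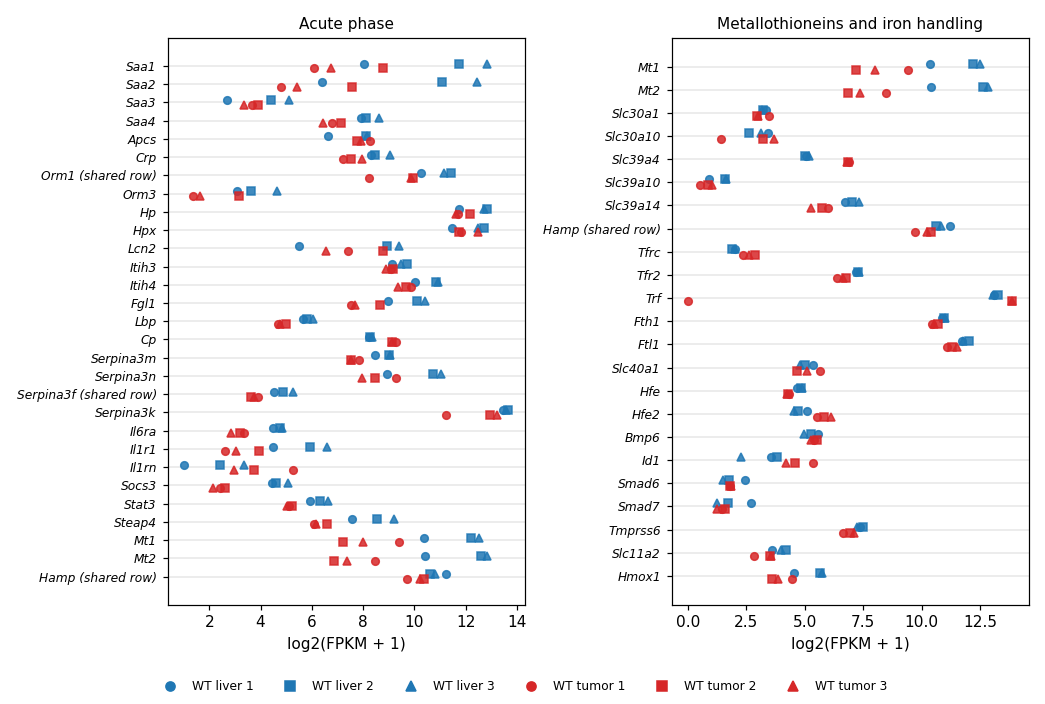
Values of log2(FPKM + 1) in each WT library (blue, livers; red, tumors; circles are replicate 1) for the tested acute phase genes and the metallothionein and iron genes. Liver 1 (blue circle) lies left of livers 2 and 3 for Saa1 (260 against 3458 and 7303 FPKM) and Mt2 (1359 against 6266 and 7319 FPKM); Slc39a4 is higher in all 3 tumors, and the 0 for Trf in tumor 1 is 1 of the listed zeros.

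Fatty acid oxidation genes were among the lists with the most falls: 19 of 29 fell and 1 rose (median -0.77), with 8, 8 and 3 falls without livers 1, 2 and 3, 18, 11 and 15 without tumors 1, 2 and 3, and 10 under TPM. Slc25a20, which carries acylcarnitines into mitochondria, was at 82.5, 96.2 and 84.1 FPKM in livers and at 44.1, 47.0 and 44.3 FPKM in tumors (-0.94, SE 0.11, adjusted p = 0.00498). Acadm, the medium chain acyl-CoA dehydrogenase, was at 280, 247 and 269 FPKM against 144, 157 and 153 FPKM (-0.80, SE 0.12, adjusted p = 0.00856). Cpt1a, the gate of mitochondrial uptake, was at 150.3, 145 and 147 FPKM against 119, 109 and 75.0 FPKM and was not called (-0.57, adjusted p = 0.0749). Fgf21, a fasting hormone chosen after its values were seen, was the member that rose, from 3.35, 3.78 and 1.01 FPKM to 7.50, 14.1 and 24.6 FPKM (2.1, adjusted p = 0.0262).

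Bile acid genes had 8 falls among 25 (median -0.90) and genes of oxidative phosphorylation 9 falls among 33 (median -0.37). The bile acid uptake transporters Slco1b2 and Slc10a1 fell by 1.45 and 1.30; Slc10a1 was at 385, 340 and 363 FPKM against 109, 185 and 156 FPKM (adjusted p = 0.0101; 0.0518 without liver 3). Cyp7a1, the rate-limiting enzyme of bile acid synthesis, was at 10.5, 7.79 and 14.7 FPKM against 14.5, 10.2 and 5.25 FPKM, and the groups overlapped (-0.18, adjusted p = 0.737). Sdha, of respiratory complex II, was at 247, 210 and 242 FPKM against 115, 107 and 132 FPKM (-0.98, adjusted p = 0.00716). Without 1 library 3, 3, 2, 13, 4 and 10 bile acid genes and 1, 2, 1, 9, 1 and 5 respiratory genes fell, and under TPM 7 and 1.

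Lipid synthesis and storage genes changed in both directions. Lpl, lipoprotein lipase, which adult hepatocytes barely express, was at 1.30, 2.21 and 2.31 FPKM in livers and at 41.9, 29.1 and 39.4 FPKM in tumors (3.69, SE 0.20, adjusted p = 0.00043). Fabp5, an epidermal type of fatty acid binding protein, was at 18.2, 24.8 and 27.1 FPKM against 206, 199.9 and 145 FPKM (2.92, SE 0.20, adjusted p = 0.000802). Scd2, a desaturase of fetal liver, in an entry shared with Scd3 and a microRNA, rose from 6.59, 3.13 and 10.8 FPKM to 48.7, 57.7 and 74.4 FPKM (3.07, adjusted p = 0.00508), whereas Scd1, the adult form, was at 785, 528 and 1408 FPKM against 536, 947 and 1994 FPKM (0.26, adjusted p = 0.750). Fasn was not called either (0.58, adjusted p = 0.335). Of 28 genes of fatty acid and triglyceride synthesis 7 rose and 2 fell, of 23 of lipid droplets and fat uptake 4 rose and 6 fell, and of 26 of cholesterol synthesis 6 rose and 3 fell. The shares over all entries were 8.01% higher and 8.96% lower, and the falls in the fatty acid and cholesterol synthesis lists were near that share. The cholesterol enzyme Lss (lanosterol synthase) was at 10.7, 12.7 and 12.6 FPKM against 41.0, 29.5 and 29.3 FPKM (1.38, SE 0.16, adjusted p = 0.00457). Without 1 library 4, 2, 2, 11, 5 and 4 genes of fatty acid synthesis, 3, 3, 2, 5, 4 and 4 of lipid droplets and 3, 4, 1, 8, 1 and 3 of cholesterol synthesis rose.

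Of 33 genes of glycolysis and the pentose phosphate pathway 4 rose and 3 fell, against 8.01% higher and 8.96% lower over all entries. The list had 4, 3, 1, 6, 3 and 3 rises and 1, 2, 0, 3, 1 and 1 falls without 1 library. G6pdx, which opens the pentose phosphate pathway, was at 2.23, 2.86 and 2.24 FPKM in livers and at 5.82, 16.3 and 11.8 FPKM in tumors (1.74, adjusted p = 0.0156; 0.0702 without liver 3). Slc2a1, the glucose transporter GLUT1, rose by 0.85 and Pfkfb3, which makes the activator of phosphofructokinase, fell by 2.04 (both lost without liver 3, adjusted p 0.0604 and 0.0557). Pkm and Hk2, often raised in liver cancer, were not called: Pkm was at 6.11, 9.86 and 8.62 FPKM against 11, 7.77 and 10.6 FPKM (adjusted p = 0.427), and Hk2 stayed below 0.6 FPKM in every library (adjusted p = 0.714).

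Targets of growth and stress signals moved gene by gene. In the MAPK and receptor kinase list 3 of 30 rose and 1 fell, against 8.01% higher and 8.96% lower over all entries. The list had 2, 3, 2, 4, 3 and 5 rises and 0, 0, 0, 2, 1 and 0 falls without 1 library. Mst1r, the receptor kinase RON, was below 0.07 FPKM in every liver and at 5.36, 3.38 and 3.56 FPKM in tumors (2.26, SE 0.17, adjusted p = 0.00137). It passed the filter only through these tumors, so its rise was partly set by the filter. Spry1, a feedback inhibitor induced by ERK, was at 1.26, 1.08 and 1.58 FPKM against 4.89, 5.91 and 3.81 FPKM (1.34, adjusted p = 0.00621), and Dusp5, a phosphatase of ERK, at 0.820, 3.46 and 1.40 FPKM against 12.6, 8.08 and 6.26 FPKM (1.84, adjusted p = 0.0193; 0.0506 without liver 1 and 0.0812 without liver 3). Egfr was at 163, 210 and 185 FPKM against 40.5, 109 and 73.9 FPKM (-1.41, adjusted p = 0.0311), a call lost without any 1 liver or tumor 3 (0.063 to 0.106). Of 21 p53 targets 5 rose and 1 fell, among them Phlda3, at 0.433, 0.700 and 0.685 FPKM against 3.98, 4.13 and 2.25 FPKM (1.45, adjusted p = 0.00778), and the cell death gene Bax, which rose by 0.72 (0.0593 without liver 3). Cdkn1a (p21) was at 11, 5.03 and 12.7 FPKM against 8.53, 38.9 and 44.3 FPKM, high in tumors 2 and 3 but not in tumor 1 (1.37, adjusted p = 0.159). Counts of p53 targets that rose were 5, 4 and 2 without livers 1, 2 and 3 and 6, 5 and 4 without tumors 1, 2 and 3.

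Of 47 NRF2 targets and glutathione S-transferases, 10 rose and 10 fell, against 8.01% higher and 8.96% lower over all entries. Under TPM 12 rose and 4 fell. Nqo1, a quinone reductase, was at 3.04, 3.76 and 4.34 FPKM in livers and at 13.4, 8.54 and 11.6 FPKM in tumors (1.36, SE 0.19, adjusted p = 0.00725). Txnrd1, thioredoxin reductase, went down from 67.1, 105 and 95.0 FPKM to 37.1, 43.1 and 36.8 FPKM (-1.15, adjusted p = 0.0109; 0.0542 without liver 3). Known targets of 1 factor thus lay on both sides. Among 28 genes of the unfolded protein response 2 rose, near the share of 8.01% over all entries, and 6 fell, against 8.96%. The chaperone cofactor Dnajb9 was at 105, 104 and 108 FPKM against 44.8, 57.1 and 38.1 FPKM (-1.18, adjusted p = 0.00652), and Herpud1, of endoplasmic reticulum degradation, fell by 1.36. Ddit3 (CHOP), a factor of the same response tied to cell death, rose by 1.27, a call lost without any 1 liver or tumor 3 (adjusted p 0.0518 to 0.131). Without 1 library 7, 7, 2, 10, 7 and 9 members of the NRF2 list rose and 6, 5, 2, 11, 4 and 6 fell, and 3, 4, 2, 6, 5 and 3 of the unfolded protein list fell.

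Markers of other cell types changed in part, and over all tested entries 8.01% were higher and 8.96% lower. Of 23 Kupffer cell and macrophage markers, 5 rose and 2 fell, and the summed level was 368 to 548 FPKM in livers and 657, 251 and 291 FPKM in tumors 1, 2 and 3. Timd4 and Cd163, of resident Kupffer cells, fell by 1.63 and 1.28 in calls that no 1 library changed; Timd4 was at 4.85, 4.44 and 2.14 FPKM against 0.440, 0.423 and 0.660 FPKM. Clec4f, which is specific to Kupffer cells, was at 44.5, 51.5 and 37.0 FPKM in livers and at 54.5, 10.5 and 11.8 FPKM in tumors, low in tumors 2 and 3 only (-1.16, adjusted p = 0.190). Trem2, of lipid-associated macrophages, rose from at most 0.604 FPKM to 1.44, 1.80 and 1.21 FPKM (0.76, adjusted p = 0.0222; lost without any 1 liver or tumor 2, 0.0503 to 0.0741). Without 1 library 0, 1, 0, 5, 2 and 4 markers rose and 2, 2, 2, 8, 2 and 2 fell.

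Some genes of antigen presentation and of plasma cells rose. Of 21 MHC genes 7 rose and none fell (median 0.59), against 8.01% higher and 8.96% lower over all entries. The rises numbered 4, 7 and 0 without livers 1, 2 and 3 and 9, 6 and 4 without tumors 1, 2 and 3. H2-Ab1, a class II chain, was at 11.9, 28.6 and 19.8 FPKM in livers and at 63.2, 55.8 and 71.7 FPKM in tumors (1.69, adjusted p = 0.0127; 0.0563 without liver 3). Jchain, which joins secreted IgA and IgM, was at 2.15, 2.22 and 0.770 FPKM against 29.8, 21.0 and 53.9 FPKM (3.67, SE 0.37, adjusted p = 0.00307). Of 11 B and plasma cell markers 5 were tested and 3 rose (2, 2, 2, 3, 3 and 2 without 1 library), and Ms4a1, Pax5, Tnfrsf17, Blk and Fcrla were below 1 FPKM in all 6 libraries; the sums were 72.8 to 107 FPKM in livers and 75.2 to 127 FPKM in tumors. Of 9 dendritic cell markers 4 were tested and 1 rose, with sums of 3.50 to 4.40 FPKM and 6.33 to 8.30 FPKM. No T and NK cell marker of 5 tested was called in limma; tumor 3 had the highest sum of the list, which ranged from 5.89 to 25.3 FPKM in tumors and from 3.10 to 7.03 FPKM in livers. The part of these cells in the MHC result was not tested.

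Of 31 interferon response genes 2 rose, Ifit2 by 1.06 and Usp18 by 1.19, against 8.01% higher over all entries. Without 1 library 1, 1, 0, 1, 2 and 7 rose. Ifit2 was lost without liver 3 (adjusted p = 0.0542, limma) and Usp18 in 5 of 6 fits without a library (0.0605 to 0.149). Of 27 chemokine and NF-kB genes 5 rose and 5 fell, and 2, 2, 0, 8, 3 and 4 rose without 1 library. Cxcl10 was at 1.81, 2.69 and 1.76 FPKM in livers and at 9.47, 5.41 and 12.6 FPKM in tumors (1.66, adjusted p = 0.0124; 0.0585 without liver 3), and Il1b at 6.67, 4.51 and 6.99 FPKM against 2.35, 0.876 and 1.15 FPKM (-1.55, adjusted p = 0.0116; 0.0558 without liver 3).

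Extracellular matrix genes had 8 rises among 29 and no fall (median 0.29), with 3, 6 and 3 rises without livers 1, 2 and 3 and 8, 3 and 6 without tumors 1, 2 and 3. Sparc, a collagen-binding glycoprotein, was at 17.0, 21.8 and 13.9 FPKM in livers and at 45.5, 35.8 and 35.4 FPKM in tumors (1.12, SE 0.18, adjusted p = 0.0120), and elastin (Eln) rose by 1.08. Col1a1 was at 1.16, 2.23 and 0.697 FPKM against 3.78, 5.04 and 3.94 FPKM (1.20, adjusted p = 0.0208; lost without liver 1, liver 3 or tumor 2, 0.0617 to 0.0664). Of 19 stellate cell and myofibroblast markers 16 were tested and 2 rose (0, 2, 0, 2, 0 and 1 without 1 library), against 8.01% of all entries. The sums were 101 to 156 FPKM in livers and 143 to 156 FPKM in tumors, and Ngfr and Pdgfra were below 1 FPKM throughout.

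Of 20 cholangiocyte and progenitor markers 15 were tested and 7 rose, among them the keratin Krt23, from 0.599, 0.247 and 0.337 FPKM to 4.53, 2.89 and 2.12 FPKM (1.55, adjusted p = 0.00878), and the progenitor factor Sox9, from 0.996, 0.817 and 0.703 FPKM to 1.94, 5.27 and 3.70 FPKM (1.27, adjusted p = 0.0229; lost without any 1 liver or tumor 3, 0.0561 to 0.0912). Krt19, which defines bile duct cells, was at 0.985, 1.16 and 0.602 FPKM against 0.483, 0.168 and 0.555 FPKM (-0.45, adjusted p = 0.123), and Cftr, Cldn4, Muc1 and Sctr were below 1 FPKM in all 6 libraries. The summed level was 541 to 1400 FPKM in livers and 714 to 1194 FPKM in tumors; 2, 3 and 1 markers rose without livers 1, 2 and 3, and 8, 3 and 3 without tumors 1, 2 and 3. Of 22 endothelial markers 2 rose and 2 fell, near the shares over all entries (8.01% higher and 8.96% lower). Cd34 and Emcn rose by 0.83 and 0.88. The sinusoidal lectin Clec4g and Bmp2 fell by 0.89 and 1.0. All 4 calls were lost without liver 3 (adjusted p 0.0545 to 0.132, limma). Without 1 library 2, 2, 0, 2, 2 and 2 rose and 0, 0, 0, 9, 0 and 0 fell. Of 4 erythroid entries Alas2, the heme enzyme of red cells, fell by 1.20 (lost without any 1 liver or tumor 2, adjusted p 0.0755 to 0.122), and of the adipose, muscle, pancreas and mesothelium list 16 of 18 genes were below 1 FPKM throughout.

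The tumor effect was then set beside that of the KO mice, which share no library with the WT comparison. The 2 effects differed for 243 entries (2.08% of those tested), of which 109 were higher in WT (0.934%) and 134 lower (1.15%). This count was 228, 7 and 10 without WT livers 1, 2 and 3 and 370, 29 and 18 without WT tumors 1, 2 and 3. For some of the large changes named above no difference was called. Akr1c18 rose by 6.13 in WT and by 4.94 in KO, Spink1 by 5.82 and 5.32, Lpl by 3.69 and 3.55, and Slc39a4 by 1.77 and 1.95. For others without a called difference the KO effect was smaller: 4.11 against 7.57 in WT for Tff3, and 1.06 (SE 1.15) against 5.85 for Afp. A difference that was not called does not show that the effects were alike. The median of the cell cycle list was 1.11 in WT and 1.46 in KO, and no member's difference was called.

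Other genes differed between genotypes by the test of the difference. Mst1r rose by 2.26 in WT, and in KO it was at 0.0567 to 0.145 FPKM in livers and 0.0780 to 0.289 FPKM in tumors (difference 2.17, adjusted p = 0.00654), and the call held without any 1 WT library. It reached 1 FPKM in the WT tumors only, and so was tested only because it was high there. Its rise and its difference were thus partly set by the filter. Prss8 (prostasin), a membrane-anchored protease, rose by 2.03 in WT, while the KO effect was -0.82 (difference 2.85, adjusted p = 0.0120), a call that held without any 1 WT library. Socs3 fell by 2.33 in WT and had an effect of 0.93 in KO (difference -3.26, adjusted p = 0.0146), and this too held without any 1 WT library. Its level in WT livers, 20.9 to 33.0 FPKM, was above that in KO livers, 1.5 to 5.01 FPKM, and the tumors were closer, at 3.39 to 5.14 FPKM and 5.99 to 8.32 FPKM. Mt2 had the largest difference among the genes named (-7.89, adjusted p = 0.0499): it was at 1359 to 7319 FPKM in WT livers, at 1580, 37.4 and 39.5 FPKM in KO livers and at 709, 1392 and 3652 FPKM in KO tumors, and the call was lost without WT liver 2, liver 3, tumor 2 or tumor 3 (0.104 to 0.125). Hsd3b5, not called in WT, fell by 5.37 in KO, from 114, 76.6 and 139 FPKM to 0.608, 0.324 and 7.42 FPKM (difference 4.52, adjusted p = 0.0400; lost without WT liver 2, liver 3, tumor 2 or tumor 3, 0.0807 to 0.0985).

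**Figure D5:**
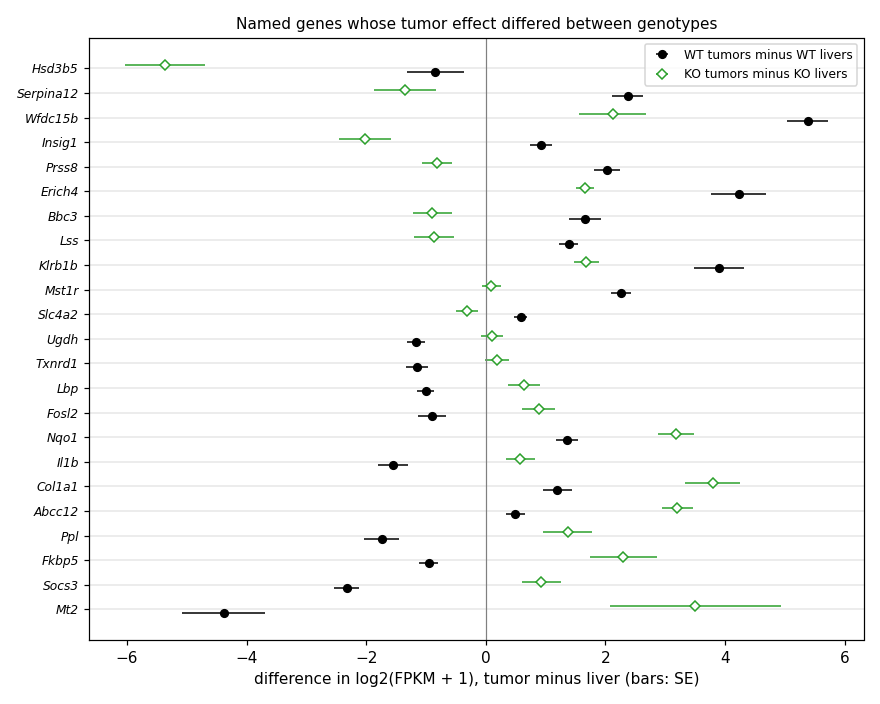
Tumor minus liver difference in log2(FPKM + 1), with its SE, in WT (black circles) and KO (open green diamonds) for 23 named genes whose difference between genotypes was called. Genes at the top, such as Serpina12 (2.37 in WT and -1.35 in KO), were higher in WT, and those at the bottom, such as Socs3 (-2.33 and 0.93), were lower; n is 3 libraries in each group.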

How the data were processed

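RNA was taken from mouse liver and liver tumors with a silica column kit, selected for poly(A) and made into unstranded libraries, according to the labels' protocols. Per the submitters' processing notes, TopHat2 2.1.1, Cufflinks 2.2.1 and the mm10 build were used. The authors deposited FPKM values for 24553 entries per library, with no counts, so depth and counting error are unknown; 865 entries repeat a name and 600 join several names. No per-sample column was left unused without a sample (0 such columns).

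From these, entries with 1 or more FPKM in 3 or more of 12 libraries (11671) were kept, and log2(FPKM + 1) was tested with limma 3.58.1 in R 4.3.3 (empirical Bayes with a mean trend, two-sided, Benjamini-Hochberg adjustment over all entries tested) between the 3 WT tumors and 3 WT livers. The pseudocount of 1 makes fold changes of low genes too small. The difference between genotypes was an interaction term over all 12 libraries. An adjusted p under 0.05 was called. Genes named were the 12 largest called rises and falls. These had a mean of 5 or more FPKM in the higher group and no overlap between groups. Up to 4 members per list with the smallest adjusted p, called or not, were also named. So were up to 6 genes each way for the difference, and textbook genes. Others are marked as chosen after their values were seen. Unnamed gene models, small RNA entries and entries at 0 in 1 library of 6 with a median of 20 or more FPKM in the others were not named. The members and gene lists were chosen with earlier results of these data known.

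Alternatives were other pseudocounts, filters, scalings (TPM, median of ratios, quantile), a fit of all 12 libraries, a replicate block, no trend, zeros set as missing, unique names and leaving out each WT library; removal of a length trend was chosen after seeing the data. Promoters came from RefSeq (GRCm38.p6) and gene coordinates from GENCODE vM21 (GRCm38). Most list members are counted and not named, and some are not reported here.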

Additional observations from a re-analysis of the deposited data

Results flagged for a closer look

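The tumor effect differed between WT and KO mice for 243 entries by the interaction test, and 23 of these are named here or in the report. Each value is the WT effect minus the KO effect on the log2 scale, with 3 libraries in each of the 4 groups.

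Among genes with the higher effect in WT, the difference was 4.52 for Hsd3b5, 3.72 for Serpina12, 3.26 for Wfdc15b, 2.94 for Insig1, 2.85 for Prss8, 2.57 for Erich4, 2.56 for Bbc3, 2.25 for Lss, 2.22 for Klrb1b, 2.17 for Mst1r and 0.90 for the anion exchanger Slc4a2. Insig1, the sensor that holds back cholesterol synthesis, and Lss rose in WT by 0.92 and 1.38, and their KO effects were -2.02 and -0.86. Bbc3 (PUMA), a p53 target that promotes cell death, rose by 1.66 in WT, and its KO effect was -0.90.

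Among genes with the lower effect in WT, the difference was -7.89 for Mt2, -3.26 for Socs3, -3.26 for Fkbp5 (a glucocorticoid-induced cochaperone), -3.11 for Ppl (periplakin), -2.71 for Abcc12, -2.60 for Col1a1, -2.13 for Il1b, -1.83 for Nqo1, -1.79 for Fosl2, -1.65 for Lbp, -1.34 for Txnrd1 and -1.27 for Ugdh. Col1a1 and Nqo1 had positive effects in both genotypes, 1.20 and 1.36 in WT and 3.79 and 3.19 in KO.

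These calls depend on single libraries. Those for Mst1r, Socs3, Prss8 and Abcc12 held in all 6 fits without 1 WT library. Mst1r, however, was tested only because it was high in the WT tumors. Those for Wfdc15b (adjusted p 0.0589 to 0.116) and Col1a1 (0.0561 to 0.116) were lost in every such fit. Those for Klrb1b (0.0511 to 0.116), Fosl2 (0.0565 to 0.107), Slc4a2 (0.0638 to 0.105) and Fkbp5 (0.0506 to 0.0971) were lost in 5. The call for Erich4 was lost without any 1 liver or tumor 2 (0.0574 to 0.0993). The other 12 were each lost without liver 2, liver 3, tumor 2 or tumor 3, with adjusted p-values from 0.0553 for Il1b to 0.125 for Mt2.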

How the results depend on the processing

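No named gene with a called difference changed direction in any alternative. The median of the male-biased list changed sign without tumor 1 (0.14), and those of other lists near 0 did so in places: 8 list medians under TPM, 5 under quantile scaling, and up to 3 without any other 1 library. The WT calls numbered 1257 with no filter (613 lower), 1292 among entries with a mean of 5 or more FPKM (373 higher), 1105 in a fit of all 12 libraries (589 higher, 516 lower) and 1235 with a replicate block (606 higher, 629 lower). TPM scaling gave 1608 higher and 400 lower, or 80.1% higher against 47.2%. Without 1 library the total ranged from 454 to 2134, the higher from 242 to 1030 and the lower from 212 to 1104. The difference between genotypes was called for 56 entries with no filter (24 higher, 32 lower), 129 with a mean of 5 or more FPKM (62 and 67), 120 under TPM (38 and 82) and 8 with the replicate block (5 and 3). Without 1 library the total ranged from 7 to 370, the higher from 2 to 152 and the lower from 5 to 218. Other pseudocounts, median of ratios, quantile scaling, no trend, zeros set as missing, unique names and removal of a length trend gave 1565 to 2045 WT calls. Same-numbered livers and tumors had correlations of -0.038, -0.056 and -0.024 in their deviations, so the replicate numbers were not taken as pairs. Of 214 named genes, some of them not called with all libraries, 127 kept their call status without liver 3. The other 87, all called with all libraries, lost their call. The cause was not tested. Depth is unknown, so no counting limit can be given.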

Other observations

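Some gene groups were looked at after their values were seen and are given as a description. Of 18 entries of heat shock chaperones, their cofactors and the factor Hsf1 tested, 9 fell and none rose, against 8.96% lower over all entries. All 18 differences were below 0, and the median was -0.88. These counts were not repeated under TPM or without 1 library. Dnajb1, a cochaperone of HSP70, was at 27.2, 40.1 and 34.4 FPKM in livers and at 11.6, 12 and 10.3 FPKM in tumors (-1.49, adjusted p = 0.00356, limma). Hsph1 and Dnaja1 fell by 1.90 and 1.89, and Hsf1, which induces such genes, had a difference of -0.11.

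Of 8 genes of serine and one-carbon metabolism tested, 4 rose and 1 fell, against 8.01% higher and 8.96% lower over all entries. Here too the counts were not repeated under TPM or without 1 library. Phgdh, the first enzyme of serine synthesis, was at 0.149, 0.142 and 0.0509 FPKM in livers and at 16.6, 8.12 and 4.26 FPKM in tumors (3.09, SE 0.39, adjusted p = 0.00621). Psat1, the next enzyme, was at 0.501, 1.19 and 0.240 FPKM against 70.5, 10.7 and 6.32 FPKM (3.52, adjusted p = 0.0261). Tumor 1 was the highest for both. Cth, which makes cysteine, fell from 233, 256 and 361 FPKM to 97.5, 128 and 148 FPKM (-1.17, adjusted p = 0.0169).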
